A study of Mus musculus with 12 samples.

Results

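The pancreatic trypsinogens, chymotrypsins and elastases are the serine proteases that acinar cells store in zymogen granules and secrete into the gut. The members were the 8 genes Prss3, Prss2, Ctrc, Ctrl, Ctrb1, Cela1, Cela2a and Cela3b, chosen by name, and were read from every probe set that the array's annotation gives to only 1 of them. They had 14 probe sets, of 20240 probe sets with 1 gene symbol and 12335 genes on the array, with 4 probe sets each for Prss2 and Cela3b and 1 for each of the other genes. A further 2 probe sets that name a member together with another gene were left out.

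RNA of whole pancreas was measured on Affymetrix MOE430A arrays in 4 groups of 3 male mice aged 2 to 4 months, with 1 array per pancreas. The groups were Mist1KO mice given caerulein, Mist1KO mice given saline, wild type C57BL6 mice given caerulein and wild type C57BL6 mice given saline. Injections were given hourly over 4 hours in all groups, and the pancreas was then taken. The series describes the pancreata as biological replicates, and neither the strain background of the Mist1KO mice nor the design of their allele is stated in the sources used here. Mist1 is a bHLH transcription factor encoded by Bhlha15 and made in cells that secrete protein in bulk, and caerulein is an analogue of cholecystokinin that at high dose overstimulates acinar cells and causes acute pancreatitis in mice.

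Trypsinogen, chymotrypsinogen and proelastase are made as inactive precursors. In the gut enteropeptidase cuts trypsinogen to trypsin, which then activates the other precursors; in pancreatitis part of this activation takes place inside the acinar cell, where cathepsin B can cut trypsinogen and the inhibitor Spink1 blocks trypsin. Prss2 encodes anionic trypsinogen and Prss3 another trypsinogen. Ctrb1 encodes chymotrypsinogen B, Ctrl a chymotrypsin-like protease, and Ctrc is the gene of chymotrypsin C, which in humans degrades trypsinogen. Cela1, Cela2a and Cela3b encode elastases. In RefSeq on build GRCm38.p6 the mouse Ctrc locus, at chr4:141838239-141846287, is annotated as a transcribed pseudogene, so the Ctrc signal is that of a transcript and says nothing of a protein. Prss3 and Prss2 lie on chromosome 6, Cela2a and Cela3b on chromosome 4 with Ctrc, Ctrl and Ctrb1 on chromosome 8, and Cela1 on chromosome 15. The serine protease genes are close relatives, and Affymetrix marks with _x those probe sets that may bind other transcripts. The brightest probe sets of Prss2 and Cela3b are of that kind, so their signals may include related transcripts.

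The promoters of both trypsinogens and of 1 elastase are shown because acinar enzyme genes are known targets of PTF1, a complex of Ptf1a and Rbpjl that binds an E-box next to a TC-box. RefSeq promoters (GRCm38.p6, 250 bases before to 50 after the start of the gene) were matched for 7 of the 8 members, all except Ctrc. Capitals mark the E-box CACCTG and the TC-box TTTCCC, read on either strand. The Prss3 promoter is at chr6:41377564-41377863 on the minus strand, that of Prss2 at chr6:41521526-41521825 on the plus strand and that of Cela1 at chr15:100687871-100688170 on the minus strand.
Prss3: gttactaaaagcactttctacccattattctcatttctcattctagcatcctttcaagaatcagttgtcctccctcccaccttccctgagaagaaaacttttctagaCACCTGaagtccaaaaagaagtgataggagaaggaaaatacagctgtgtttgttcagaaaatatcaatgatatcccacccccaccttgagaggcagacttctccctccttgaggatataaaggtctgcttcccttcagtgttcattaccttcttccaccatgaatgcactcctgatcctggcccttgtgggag
Prss2: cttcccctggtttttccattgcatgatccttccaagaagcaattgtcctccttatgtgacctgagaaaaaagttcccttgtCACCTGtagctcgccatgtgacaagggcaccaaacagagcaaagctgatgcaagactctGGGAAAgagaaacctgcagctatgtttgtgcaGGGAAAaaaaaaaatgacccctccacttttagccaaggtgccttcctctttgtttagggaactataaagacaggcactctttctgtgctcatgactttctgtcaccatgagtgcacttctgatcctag
Cela1: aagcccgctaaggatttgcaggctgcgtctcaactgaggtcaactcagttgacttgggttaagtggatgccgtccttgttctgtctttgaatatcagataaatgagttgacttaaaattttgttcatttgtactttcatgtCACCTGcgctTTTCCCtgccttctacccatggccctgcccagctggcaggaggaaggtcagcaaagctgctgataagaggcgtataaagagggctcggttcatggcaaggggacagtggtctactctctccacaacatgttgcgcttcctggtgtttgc
In Cela1 the E-box began 109 bases before the start and the TC-box 99 bases before it. Prss2 held 1 CACCTG and 2 TTTCCC, both on the opposite strand, and Prss3 held 1 CACCTG and no TTTCCC. No matches shared bases. The E-box CACCTG was found in 6 of the 7 promoters, with Ctrb1 the exception, and in 20.2% of all 32851 RefSeq promoters of the same length. TTTCCC was found in 4 of 7 and in 25.2% of all promoters, and the TATA sequence TATAAA in 3 of 7 and 13.6%. CATATG, an E-box that Mist1 is known to bind, was found in 0 of 7 and in 3.91% of all. These matches are letters in a window and were not tested as binding sites.

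The array scale bears on every value below. The 18 probe sets of the bacterial and phage hybridisation spikes (BioB, BioC, BioD and Cre), RNAs that are added to each sample after labelling and that no tissue makes, gave geometric means of 446 ± 58.0 signal units (SD, n = 3 in each group) in Mist1KO after caerulein, 914 ± 138 in Mist1KO after saline, 1074 ± 325 in wild type after caerulein and 1263 ± 61.8 in wild type after saline. The median signal of all probe sets was 70.6 to 74.8 in Mist1KO after caerulein and 77.9 to 83.2 in Mist1KO after saline. It was 76.3 to 82.0 in wild type after caerulein and 85.25 to 90.15 in wild type after saline. The medians were thus lowest and highest in the same groups as the spike means, but differed far less than the spikes. The spikes of Mist1KO after caerulein, at 408 to 513, lay below those of all other arrays. Those of wild type after caerulein ran from 831 to 1443 and overlapped both saline groups. Values with the arrays scaled to the spikes are given as a second frame. Bhlha15 itself, the gene deleted in Mist1KO, had signals of 38.3 to 107 on the 6 Mist1KO arrays and of 730 to 1624 on the 6 wild type arrays; where its probe set lies relative to the deleted part was not checked. In whole pancreas a lower signal of an acinar gene can come from fewer acinar cells or from less RNA per cell, and these cannot be told apart.

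**Figure D1:**
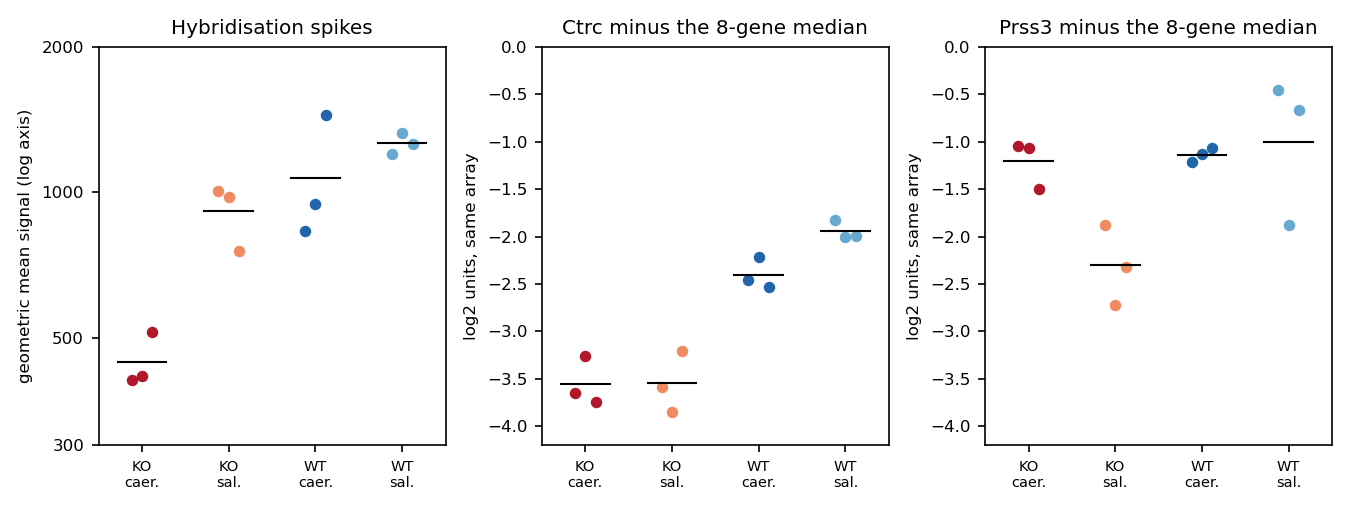
Left, the geometric mean signal of the 18 hybridisation spike probe sets on each array (log axis). Middle and right, the log2 signal of Ctrc and of Prss3 minus the median log2 signal of the 8 proteases on the same array. Points are arrays, bars are means of 3 arrays, KO is Mist1KO, WT is wild type, caer. is caerulein and sal. is saline. The spikes are lowest in Mist1KO after caerulein; Ctrc lies lower against the other proteases on all 6 Mist1KO arrays than on any wild type array, and Prss3 is lowest in Mist1KO after saline.

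The members fell into 6 genes with nearly the same pattern, and Ctrc and Prss3, which each had their own; the grouping was made after the values were seen. The 6 genes were Prss2, Ctrl, Ctrb1, Cela1, Cela2a and Cela3b. Their 12 probe sets ranked between 1 and 73 by signal on every array and lay between 53.3% and 100% of the array's highest signal, and the brightest Prss2 probe set was the highest of all on each of the 12 arrays. Ctrc ranked between 100 and 1072 and Prss3 between 41 and 264. Levels of different probe sets are not compared here, because probes differ in how well they bind.

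Prss2, anionic trypsinogen, had signals of 12810, 11252 and 16856 in Mist1KO after caerulein, 19480, 22124 and 18548 in Mist1KO after saline, 21084, 22678 and 31470 in wild type after caerulein and 28649, 33728 and 26080 in wild type after saline. The order of the group means was wild type saline, wild type caerulein, Mist1KO saline and Mist1KO caerulein from high to low; the caerulein and saline arrays of wild type overlapped, as did wild type caerulein and Mist1KO saline, while the lowest group stood apart from the others. The other 3 probe sets of Prss2 kept the same order of group means. Prss3, the other trypsinogen, had signals of 4979, 4312 and 4881 in Mist1KO after caerulein, 4585, 2748 and 3080 in Mist1KO after saline, 7647, 8804 and 11828 in wild type after caerulein and 17316, 7382 and 13297 in wild type after saline. Both Mist1KO groups lay below both wild type groups, and the injections overlapped within each genotype. Wild type saline was the most variable group, with a standard deviation of 39.5% of its mean.

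Ctrc had signals of 802, 926 and 1013 in Mist1KO after caerulein, 1391, 1247 and 1654 in Mist1KO after saline, 3215, 4123 and 4276 in wild type after caerulein and 6685, 6775 and 5249 in wild type after saline. No 2 of the 4 groups overlapped. Ctrl, the chymotrypsin-like protease, had signals of 9590, 7733 and 12443 in Mist1KO after caerulein, 13795, 16827 and 13056 in Mist1KO after saline, 17645, 17106 and 20753 in wild type after caerulein and 21829, 24733 and 19451 in wild type after saline. Ctrb1, chymotrypsinogen B, had signals of 10614, 9081 and 13996 in Mist1KO after caerulein, 16906, 18194 and 15716 in Mist1KO after saline, 17977, 19518 and 25093 in wild type after caerulein and 24588, 27999 and 21023 in wild type after saline. Both followed the order of Prss2, and in both the caerulein and saline arrays of wild type overlapped.

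The elastases kept to that order as well. Cela1 had signals of 10708, 9041 and 14496 in Mist1KO after caerulein, 16869, 19490 and 15850 in Mist1KO after saline, 18141, 19841 and 25102 in wild type after caerulein and 24211, 29215 and 22322 in wild type after saline. Cela2a ranged from 9148 to 13679 in Mist1KO after caerulein, from 15116 to 18328 in Mist1KO after saline, from 18917 to 24627 in wild type after caerulein and from 21063 to 28767 in wild type after saline. Cela3b, by its brightest probe set, ranged from 9590 to 15047 in Mist1KO after caerulein, from 16025 to 18428 in Mist1KO after saline, from 17300 to 25337 in wild type after caerulein and from 23552 to 26509 in wild type after saline. In all 3 elastases the 3 Mist1KO caerulein arrays were the lowest of the 12.

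**Figure D2:**
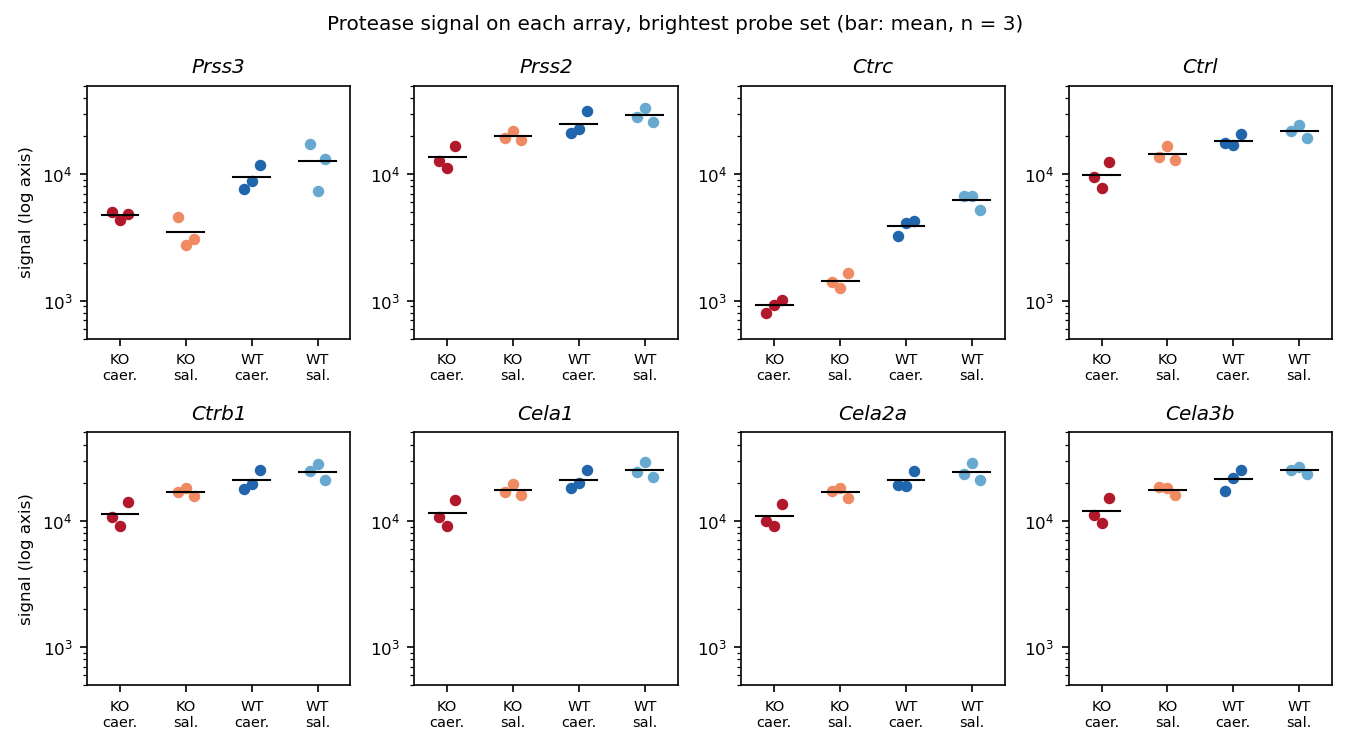
Signal of the brightest probe set of each protease on each array (log axis, the same in all panels). Points are arrays and bars are means of 3 arrays; KO is Mist1KO, WT is wild type, caer. is caerulein and sal. is saline. Ctrc separates all 4 groups, Prss3 separates the genotypes, and the other 6 genes descend together towards Mist1KO after caerulein.

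After saline, Mist1KO pancreas had less Ctrc and less Prss3 signal than wild type by a wide margin, with smaller differences in the other proteases. Ctrc averaged 914 ± 106 in Mist1KO after caerulein and 1430.5 ± 206 in Mist1KO after saline, against 3871 ± 574 in wild type after caerulein and 6236 ± 856 in wild type after saline (SD, n = 3 each). On the log2(signal + 18.7) scale used for all tests, the Mist1KO minus wild type difference after saline was -2.11 ± 0.15 (SE, n = 3 per group; 4.32-fold lower; adjusted p = 1.93e-06, limma with Benjamini-Hochberg adjustment over 15716 probe sets). Prss3 differed by -1.81 ± 0.27 (3.51-fold lower, adjusted p = 0.000922). Ctrl, at -0.60 ± 0.18, passed the threshold of 0.05 narrowly (adjusted p = 0.0410). The other 5 genes lay between -0.55 and -0.52 and none passed, with adjusted p-values from 0.0687 to 0.0771.

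So 3 of the 8 members were called lower after saline, where 5.74% of all tested probe sets were called lower. All 14 probe sets had their 3 Mist1KO arrays below the 3 wild type arrays, which was true of 17.5% of all tested probe sets. The spikes differed by -0.48 in the same direction, and the 50 brightest probe sets of other genes, a set formed after the values were seen, had a median of -0.45 with 12 of 50 called lower. The difference of the 6 genes was thus of the size seen in the spikes and in other very bright probe sets. Secreted acinar products such as Rnase1, Cel and Clps are as bright as the 6 genes. The 50 probe sets, here and below, are therefore no measure of array scale apart from acinar content. The part of array scale in the difference was not tested. The call of Ctrl ended in 6 of the 12 fits that left out 1 array, and all 8 members were called without Mist1KO caerulein replicate 3, an array outside this comparison, or when only these 2 groups were fitted. Ctrc and Prss3 remained called in all 12.

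After caerulein, all 8 members were called lower in Mist1KO than in wild type, where 10.2% of probe sets were called lower; with the arrays scaled to the spikes, 7 of them had the opposite sign and Ctrc alone stayed lower. Ctrc again differed most, by -2.06 ± 0.15 (4.16-fold lower, adjusted p = 1.16e-06). Prss3 differed by -0.97 ± 0.27 (1.96-fold lower, adjusted p = 0.0210), and the 6 other genes lay between -0.94 and -0.86, with adjusted p-values between 0.00218 and 0.00452. The Mist1KO arrays lay below the wild type arrays for all 14 probe sets, against 20.7% of all tested. The spikes differed by more than the 6 genes did, by -1.23, and the 50 bright probe sets had a median of -0.79 with 43 of 50 called lower. The call of Prss3 ended without wild type caerulein replicate 3 (adjusted p = 0.0858) or Mist1KO caerulein replicate 2 (adjusted p = 0.0722).

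In wild type mice, Ctrc alone among the members passed the threshold with caerulein, and it fell by 0.69 ± 0.15 on the log2 scale (1.61-fold lower, adjusted p = 0.00631), where 9.74% of probe sets were called lower. With the arrays scaled to the spikes it differed by -0.41 and did not pass (adjusted p = 0.331). The 3 caerulein arrays of Ctrc lay below the 3 saline arrays, and it was the only one of the 14 probe sets for which this held (20.7% of all tested). Prss3 differed by -0.36 with a 95% interval from -0.94 to 0.22 (adjusted p = 0.373). It was called without wild type saline replicate 2, the array on which its signal of 7382 was far below the other 2 of that group (-0.71, adjusted p = 0.0479). The other 6 genes lay between -0.27 and -0.22, their widest intervals running from -0.67 to 0.16, beside -0.27 for the spikes and -0.22 for the 50 bright probe sets.

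In Mist1KO mice, 7 of the 8 members fell with caerulein and Prss3 was the exception, whereas scaling to the spikes turned the sign of all 7. Ctrc differed by -0.63 ± 0.15 (1.55-fold lower, adjusted p = 0.00785) and the 6 other genes by -0.64 to -0.57, with adjusted p-values between 0.0178 and 0.0381. The share of probe sets called lower was 13.4%, and 13 of the 14 probe sets had no overlap between the caerulein and the saline arrays (27.3% of all tested). Prss3 went the other way, with a difference of 0.48 ± 0.27 that did not pass (95% interval from -0.10 to 1.05, adjusted p = 0.233). The spikes differed by -1.03 and the 50 bright probe sets by a median of -0.56, with 41 of 50 called lower. The count fell to 1, Ctrc alone, without any one of Mist1KO saline replicates 1 and 2 and Mist1KO caerulein replicates 1 and 2, without the filter on dim probe sets, and with each array centred on its median.

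**Figure D3:**
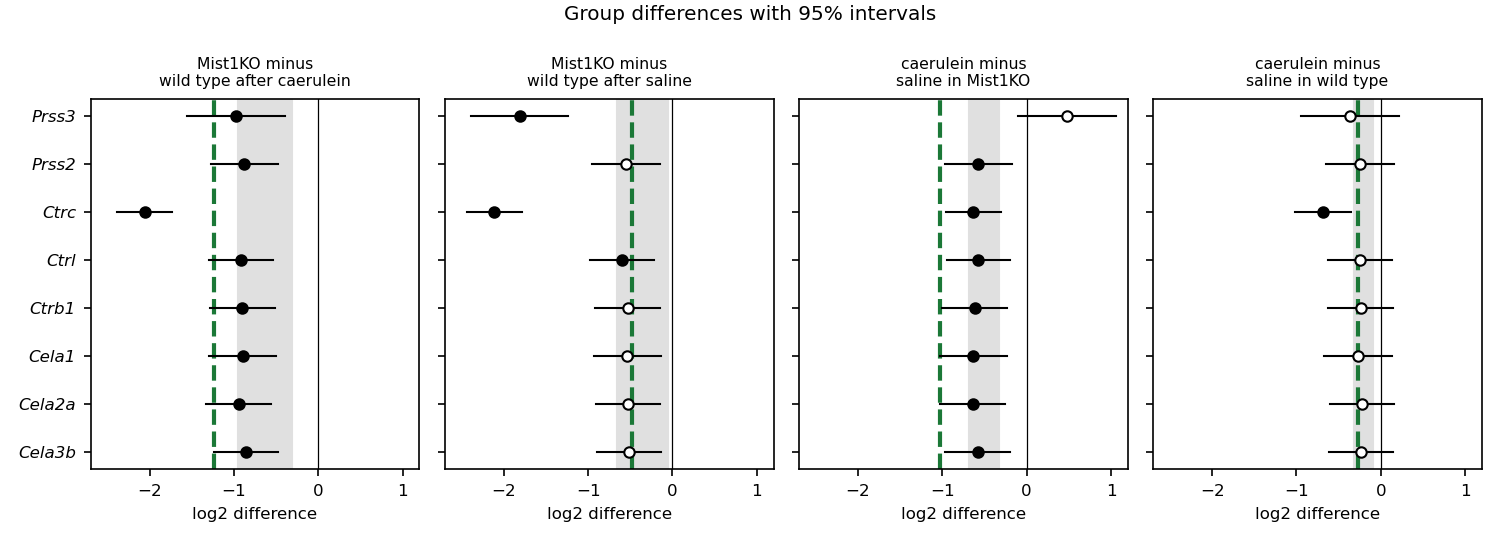
Log2 differences of the 8 proteases in the 4 comparisons, with 95% intervals. Filled points have an adjusted p under 0.05, and the dashed line is the difference of the hybridisation spikes. The grey band holds the middle 80% of the 50 brightest probe sets of other genes, which include secreted acinar products. The 6 genes other than Ctrc and Prss3 lie in or at the edge of the band in every panel, Ctrc lies left of it in 3 panels, and Prss3 lies right of zero for caerulein in Mist1KO.

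The effect of caerulein in Mist1KO minus that in wild type, the interaction, was called for 0 of 8 members by limma (1 of 8, Prss3, at an unadjusted p under 0.05), where 3.30% of probe sets were called. Prss3 had an interaction of 0.84 ± 0.38 (adjusted p = 0.284). Ctrc had 0.05 ± 0.22 with a 95% interval from -0.41 to 0.52 (adjusted p = 0.939), and its fall with caerulein was therefore not shown to differ between the genotypes. The 6 other genes lay between -0.42 and -0.32, with the spikes at -0.76 and the 50 bright probe sets at -0.32.

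Setting each member against the others on the same array removes any factor that multiplies all signals of the array alike. It does not remove a compression of the highest signals, and whether these arrays had one was not tested. Relative to the median log2 signal of the 8 members, Ctrc lay at -3.55 ± 0.26 in Mist1KO after caerulein, -3.55 ± 0.32 in Mist1KO after saline, -2.40 ± 0.17 in wild type after caerulein and -1.94 ± 0.10 in wild type after saline (SD, n = 3 each). The 2 Mist1KO groups overlapped, and the 2 wild type groups did not. Prss3 lay at -1.20 ± 0.26 in Mist1KO after caerulein, -2.30 ± 0.42 in Mist1KO after saline, -1.14 ± 0.07 in wild type after caerulein and -0.999 ± 0.77 in wild type after saline. Relative to its fellow proteases, Prss3 was thus lowest in Mist1KO after saline, with the 3 arrays of that group between -2.72 and -1.88, although wild type saline replicate 2 also lay at -1.88. The 12 probe sets of the 6 genes stayed between -0.63 and 0.34 of the same median on every array. These within-array values are descriptions and were given no test.

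Some calls held under the other scalings of the arrays that were run, and others did not. With the arrays scaled to the spikes, the median of all probe sets moved to 0.35 for Mist1KO against wild type after saline, 1.01 after caerulein, 0.77 for caerulein in Mist1KO and 0.09 for caerulein in wild type. Ctrc was still called lower in Mist1KO, at -1.63 after saline (adjusted p = 1.82e-05) and at -0.84 after caerulein (adjusted p = 0.00188), where 0.668% and 0.617% of probe sets were called lower. Prss3 was called lower in Mist1KO after saline, at -1.34 (adjusted p = 0.000581), and differed by 0.26 after caerulein (adjusted p = 0.326). Neither fall of Ctrc with caerulein kept its call on this scale, at 0.38 in Mist1KO (adjusted p = 0.134) and -0.41 in wild type (adjusted p = 0.331). The 6 genes differed by between -0.12 and -0.04 after saline, and after caerulein they changed sign, to between 0.29 and 0.37, with Prss2 (adjusted p = 0.0442) and Cela3b (adjusted p = 0.0399) called higher in Mist1KO where 74.6% of all probe sets were. On this scale Prss3 was 1.50 higher with caerulein in Mist1KO (adjusted p = 1.50e-05), where 56.7% of probe sets were called higher, and its interaction of 1.59 passed (adjusted p = 0.00507), where 11.4% were called higher. With quantile normalization Prss3 was 0.63 higher with caerulein in Mist1KO (adjusted p = 0.0226, with 10.7% of probe sets called higher), and Ctrc was called lower in all 4 comparisons, at -2.15 to -0.65. Quantile normalization gives the highest probe set of each array the same value, so the brightest Prss2 probe set could show no difference there by construction. The 12 probe sets of the 6 genes ranked between 1 and 73 on every array. The other genes of the 6 were thus also held close to fixed values, and their small differences there say little. The same 10 µg of total RNA was used in every group and the spikes were added after labelling. None of these scales can therefore follow the amount of RNA in the tissue.

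**Figure D4:**
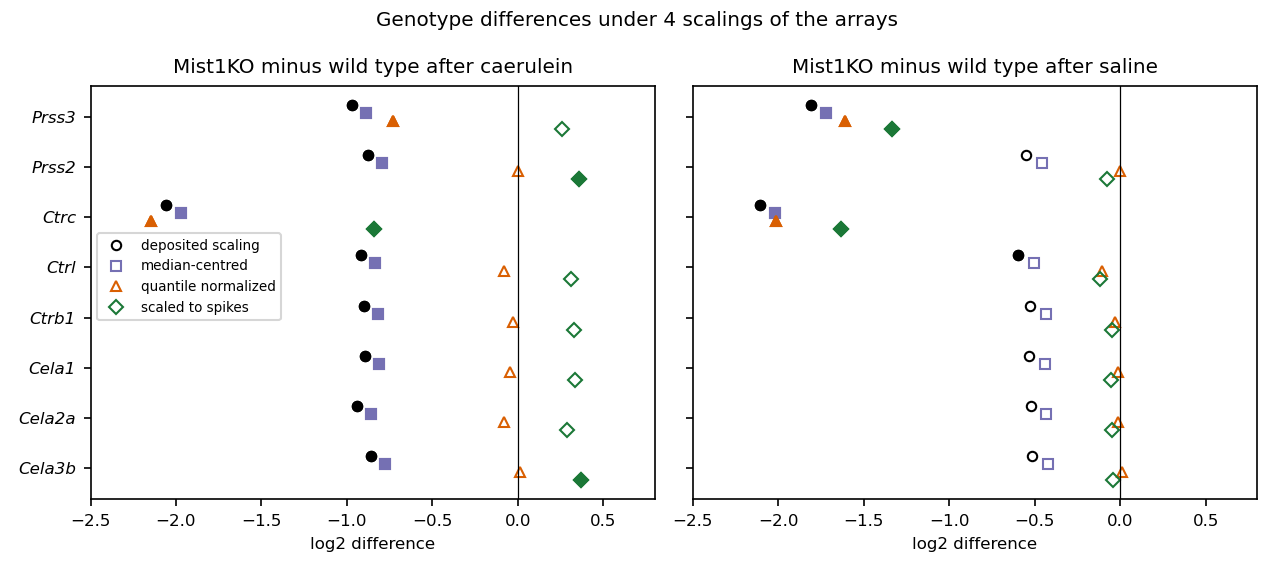
Log2 differences between Mist1KO and wild type, after caerulein (left) and after saline (right), for the 8 proteases under 4 scalings of the arrays. Filled symbols have an adjusted p under 0.05. Ctrc lies below zero under each scaling in both panels and Prss3 does so after saline. The other 6 genes lie above zero after caerulein with spike scaling. They lie near zero with quantile normalization, which holds the top-ranked probe sets close to fixed values.

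Across the 12 arrays the 6 genes followed one another closely, with Pearson correlations of their log2 signals between 0.969 and 0.997 over 15 pairs. Ctrc correlated with them at 0.870 to 0.889 and Prss3 at 0.577 to 0.643. The arrays share their scale, and the correlation with the spikes was 0.927 to 0.957 for the 6 genes, 0.834 for Ctrc and 0.557 for Prss3, so these values describe the arrays as well as the genes. Of 9310 other genes, the ones most like Ctrc over the 12 arrays were Copz2 (r = 0.992), Bhlha15 (0.987) and Klk1b5 (0.982). Those most like Prss3 were Atp13a2 (0.952), Dlx3 (0.939) and Cfap298 (0.934). The nearest genes to the other 6 members were all secreted acinar products, drawn from Zg16, Sycn, Reg1, Cel, Clps and Pnliprp1 with r between 0.986 and 0.997.

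Other serine proteases of the pancreas were few on the array, with 4 of 12 listed genes tested. The kallikrein Klk1b5 differed by -1.01 in Mist1KO after saline and by -1.04 after caerulein and was the only one of the 4 called after saline. Scaled to the spikes it lost both calls, at -0.53 after saline (adjusted p = 0.103) and 0.19 after caerulein (adjusted p = 0.439). The Klk1b5 probe set is of the _x kind, so its signal may include related transcripts. After caerulein the kallikrein Klk1 was also lower in Mist1KO (-0.72, adjusted p = 0.00403, and 0.52 scaled to the spikes). Prss23 was higher in Mist1KO after caerulein, narrowly past the threshold (0.78, adjusted p = 0.0491, and 1.81 scaled to the spikes). Its signals were low, at 86.4 to 129.7 in Mist1KO after caerulein and 48.8 to 65.1 in wild type after caerulein. For the counts of listed genes given from here on, the shares of all probe sets called higher were 10.0% for Mist1KO against wild type after caerulein, 6.84% for the same after saline, 10.5% for caerulein in Mist1KO and 9.19% for caerulein in wild type, and those called lower were 10.2%, 5.74%, 13.4% and 9.74% in that order. The 13 tested digestive enzymes and secreted products that are not serine proteases, such as amylase, lipases and carboxypeptidases, were all called lower in Mist1KO after caerulein (median -0.87) and all called lower with caerulein in Mist1KO (median -0.62). Scaled to the spikes, their medians were 0.36 and 0.41, with 6 and 8 of the 13 called higher where 74.6% and 56.7% of probe sets were. After saline 2 of 13 were called lower in Mist1KO (median -0.48), the phospholipase Pla2g1b at -0.89 and the lipase cofactor Clps at -0.55; neither passed when scaled to the spikes (-0.41 and -0.08), and the call of Clps was lost in 8 of the 12 fits that left out 1 array. By limma 0 of 13 passed with caerulein in wild type, nor did any at an unadjusted p under 0.05 (median -0.20). For the 8 proteases the medians were -0.91 for Mist1KO against wild type after caerulein, -0.54 for the same after saline, -0.60 for caerulein in Mist1KO and -0.25 for caerulein in wild type. For all 9481 genes tested they were -0.09, -0.09, -0.14 and -0.16 in that order.

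Listed protease inhibitors moved in both directions. The list also holds Cst3, which inhibits cysteine proteases, and Serpina6, a hormone carrier. Of its 11 tested genes, 3 rose and 2 fell with caerulein in Mist1KO, and 2 rose and 1 fell in wild type; after caerulein 1 was higher and 2 lower in Mist1KO than in wild type, and after saline 2 were lower. In Mist1KO the 3 that rose and the 2 that fell stand beside 10.5% and 13.4% of all probe sets. Spink1, the trypsin inhibitor of the granule, had signals of 5840, 5083 and 7702 in Mist1KO after caerulein, 8643, 8119 and 7381 in Mist1KO after saline, 8292, 9873 and 12153 in wild type after caerulein and 10242, 10062 and 10462 in wild type after saline. It was lower in Mist1KO after caerulein (-0.71 ± 0.16, adjusted p = 0.00806; 0.52 with the arrays scaled to the spikes) and did not pass in the other comparisons, though it did with caerulein in Mist1KO without Mist1KO caerulein replicate 3 (-0.56, adjusted p = 0.0188). Serpini2, pancpin, a serpin of acinar cells, fell with caerulein in Mist1KO (-0.82 ± 0.14, adjusted p = 0.000526; 0.20 with spike scaling) and in wild type (-0.50 ± 0.14, adjusted p = 0.0198; -0.22 with spike scaling, adjusted p = 0.647). The wild type call did not hold without wild type saline replicate 2 (adjusted p = 0.0694) or wild type caerulein replicate 1 (adjusted p = 0.0711). The intracellular serpin Serpinb6a rose with caerulein by 2.08 ± 0.20 in Mist1KO (adjusted p = 7.15e-06) and by 1.62 ± 0.20 in wild type (adjusted p = 8.91e-05). Serpina3n rose by 1.79 ± 0.37 in Mist1KO (adjusted p = 0.00276) and differed by 0.55 in wild type (adjusted p = 0.326); its interaction did not pass (adjusted p = 0.243).

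Of the lysosomal proteases, Ctsb and Ctsl, which can act on trypsinogen, rose with caerulein in both genotypes, while Ctsd and Ctss passed in neither. A further cathepsin, Ctsc, ranged from 490 to 649 in Mist1KO after caerulein and from 332 to 466.5 in Mist1KO after saline. In wild type Ctsc ranged from 801 to 1259 after caerulein and from 493.5 to 546 after saline. Ctsb, cathepsin B, had signals of 1893, 2156 and 2147 in Mist1KO after caerulein against 972, 1173 and 1112 in Mist1KO after saline, and of 1549, 1954 and 1947 in wild type after caerulein against 1077, 993 and 1024 in wild type after saline. No caerulein array overlapped a saline array, and the rise was 0.92 ± 0.12 in Mist1KO (adjusted p = 8.15e-05) and 0.80 ± 0.12 in wild type (adjusted p = 0.000369). Ctsl, cathepsin L, which inactivates trypsinogen and trypsin, rose by 0.73 ± 0.15 in Mist1KO (adjusted p = 0.00305) and by 0.99 ± 0.15 in wild type (adjusted p = 0.000418), and was lower in Mist1KO than in wild type after caerulein (-0.55 ± 0.15, adjusted p = 0.0194; 0.67 with spike scaling). That call did not hold without wild type caerulein replicate 3 (adjusted p = 0.0794) or Mist1KO caerulein replicate 1 (adjusted p = 0.0923) or 2 (adjusted p = 0.0538). Vmp1, of the autophagosome, rose by 1.79 in Mist1KO and 1.22 in wild type. Lamp2, a lysosomal membrane protein, was higher in Mist1KO than in wild type both after caerulein (1.30 ± 0.17, adjusted p = 0.000145) and after saline (0.67 ± 0.17, adjusted p = 0.0205). The call after saline did not hold without Mist1KO saline replicate 1 (adjusted p = 0.0867) or 3 (adjusted p = 0.0544), or wild type saline replicate 1 (adjusted p = 0.0672) or 2 (adjusted p = 0.0729). Of the 10 tested genes of this list 3 rose and 2 fell with caerulein in Mist1KO, and 4 rose and 0 fell in wild type; in Mist1KO against wild type 1 was higher and 4 lower after caerulein, and 1 higher and 1 lower after saline.

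**Figure D5:**
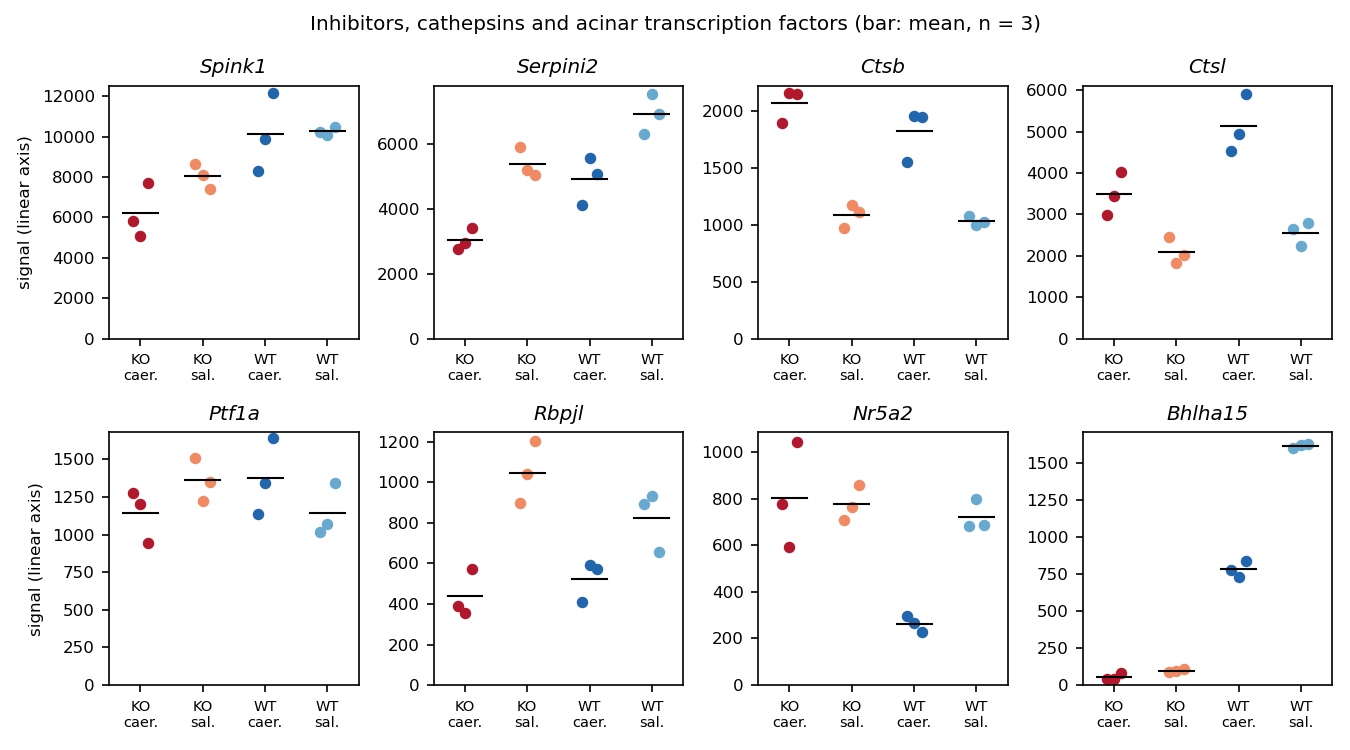
Signals (linear axis from 0) of the trypsin inhibitor Spink1, the serpin Serpini2, cathepsins B and L (Ctsb, Ctsl) and 4 acinar transcription factors on each array. Points are arrays and bars are means of 3 arrays; KO is Mist1KO, WT is wild type, caer. is caerulein and sal. is saline. Ctsb and Ctsl are higher after caerulein in both genotypes, Rbpjl is lower after it in both, and Nr5a2 is low in wild type after caerulein.

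Transcription factors that drive acinar enzyme genes differed in their patterns. Ptf1a, the subunit that defines PTF1, passed in no comparison, with differences between -0.26 and 0.26 (0.96 after caerulein between the genotypes with spike scaling). Its partner Rbpjl had signals of 388, 357 and 573 in Mist1KO after caerulein against 897, 1041 and 1204 in Mist1KO after saline, and of 410, 594 and 572 in wild type after caerulein against 894, 932 and 655 in wild type after saline. With caerulein it fell by 1.24 ± 0.20 in Mist1KO (adjusted p = 0.000426) and fell by 0.64 ± 0.20 in wild type (adjusted p = 0.0376), and neither passed with spike scaling, at -0.24 (adjusted p = 0.402) and -0.37 (adjusted p = 0.502). In wild type the call was lost when wild type saline replicate 1 (adjusted p = 0.110) or 2 (0.118) was left out, and likewise wild type caerulein replicate 1 (0.132) or 3 (0.0578). Nr5a2, a nuclear receptor of acinar cells, was lower with caerulein in wild type (-1.40 ± 0.18, adjusted p = 8.20e-05), differed by 0.02 in Mist1KO (adjusted p = 0.955; 1.03 with spike scaling), and its interaction was called (1.42 ± 0.25, adjusted p = 0.00749). Foxa2, a forkhead factor of foregut epithelia, fell with caerulein in wild type by 1.33 ± 0.22 (adjusted p = 0.000760) and was higher in Mist1KO than in wild type after caerulein (0.98 ± 0.22, adjusted p = 0.00621). Bhlha15 itself fell with caerulein in wild type (-1.03 ± 0.17, adjusted p = 0.000934; -0.76 with spike scaling, adjusted p = 0.0682). Of the 13 tested factors, 2 fell with caerulein in Mist1KO and 5 in wild type and none rose; 3 were higher and 1 lower in Mist1KO after caerulein, and 1 lower after saline. The 5 of 13 that fell in wild type stand beside 9.74% of all probe sets, and the 2 of 13 in Mist1KO beside 13.4%. Of 12 tested granule membrane and exocytosis genes, 2 were higher and 2 lower in Mist1KO after caerulein, and 2 lower after saline, beside 10.0%, 10.2% and 5.74% of all probe sets. The granule GTPase Rab3d differed by -2.48 ± 0.12 after caerulein and by -1.88 ± 0.12 after saline, the lowest values in Mist1KO against wild type after those of Bhlha15 among the listed genes that are not members. With caerulein 2 of the 12 rose and 1 fell in Mist1KO, and 1 rose and 1 fell in wild type.

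Markers of other cells also moved between the groups. Their sums, counts and medians are given on the deposited scale only, on which the spikes differed by -1.03 for caerulein in Mist1KO. The summed signal of 8 acinar markers lay between 50542 and 77303 in Mist1KO after caerulein, 88129 and 102640 in Mist1KO after saline, 97948 and 131750 in wild type after caerulein and 119530 and 147360 in wild type after saline; some of these markers are themselves digestive enzymes. Krt19, a duct keratin that injured acinar cells can also express, averaged 853 in Mist1KO after caerulein against 56.3 in Mist1KO after saline, and 335 in wild type after caerulein against 77.8 in wild type after saline. The sum of the 6 duct markers on the array lay between 2286 and 2555 in Mist1KO after caerulein, 1442 and 1676 in Mist1KO after saline, 2021 and 2392 in wild type after caerulein and 2282 and 2640 in wild type after saline. Of the 4 duct markers tested, 1 rose with caerulein in Mist1KO, and 1 rose and 1 fell in wild type. The 7 islet markers summed to between 9602 and 10835 in Mist1KO after caerulein, 12940 and 14416 in Mist1KO after saline, 11025 and 16162 in wild type after caerulein and 13541 and 14331 in wild type after saline. Of the 5 islet markers tested, 1 fell with caerulein in Mist1KO and 2 were lower in Mist1KO than in wild type after caerulein. Endothelial markers summed to between 430 and 594 in Mist1KO after caerulein, 440 and 549 in Mist1KO after saline, 570 and 664 in wild type after caerulein and 799 and 885 in wild type after saline. After saline 2 of the 5, Pecam1 (-0.68) and Kdr (-0.95), were called lower in Mist1KO, and all 5 lay below zero with a median of -0.68. Fibroblast and stellate markers summed to between 1595 and 2240 in Mist1KO after caerulein, 2722 and 4112 in Mist1KO after saline, 1529 and 2460 in wild type after caerulein and 2068 and 4068 in wild type after saline, and 3 of the 5 tested fell with caerulein in Mist1KO (median -0.71). Myeloid markers summed to at most 1762 and lymphoid markers to at most 2167 on any array. Of the 6 myeloid markers tested, 3 fell with caerulein in wild type and 1 was lower in Mist1KO after saline. Of the 5 lymphoid markers tested, 1 rose with caerulein in Mist1KO and 2 fell in wild type. Between the genotypes 1 was higher in Mist1KO after caerulein, and 1, not Jchain, after saline. Jchain, the joining chain of secreted antibodies, averaged 735 in Mist1KO after caerulein against 272 in Mist1KO after saline. In wild type it averaged 84.6 after caerulein against 678 after saline. Scaled to the spikes, Krt19 differed with caerulein by 4.49 in Mist1KO and 2.05 in wild type. Jchain differed by 2.35 in Mist1KO and -2.29 in wild type on that scale. The part of all these markers in the differences of the proteases was not tested.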

How the data were processed

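The authors deposited 1 table of array intensity values per probe set, on a linear scale, for 22516 probe sets on 12 arrays. For probe summarisation and scaling, the method was not given in the sources used here. Gene names came from the platform annotation: 20240 probe sets had 1 symbol, 682 several and 1530 none, and 64 were controls.

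The deposited intensities were kept as scaled and log2 was taken after adding 18.7, which is their 20th percentile. Probe sets at or below the 30th percentile of mean log2 were left out, which left 15716, among them all 14 of the members. The 4 groups were modelled together in limma 3.58.1 (R 4.3.3), with an intensity trend and two-sided tests, and a Benjamini-Hochberg adjustment over the whole set, at a threshold of 0.05. A gene was read from its brightest probe set. In data simulated for Mist1KO against wild type after saline over 15716 probe sets, 58.6% of changes of 1 log2 unit and 94.7% of changes of 2 were recovered. The simulated noise was drawn separately for each probe set, without a factor shared by the probe sets of an array. These shares therefore do not describe recovery where arrays differ in scale. No 2 of the 66 pairs of arrays were identical. The number of arrays limits the precision.

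The members, gene lists and tests were chosen with earlier results of these data known. Named are all members and, over the lists, the 2 largest rises and the 2 largest falls past the threshold in each comparison. Also named are Spink1, Serpini2, Ctsb, Ctsl, Ptf1a, Rbpjl, Nr5a2 and Bhlha15, whatever they did, and the 3 genes most correlated with each member. Outside these rules, Klk1, Prss23, Pla2g1b, Clps, Ctsc, Ctsd, Ctss and markers of other cells were named after their values were seen. The alternatives were other offsets, no filter, 3 other scalings, the next brightest probe set, no trend, a replicate block, the 2 groups alone, and leaving out each array. The same replicate numbers did not pair the samples: 0 of 18 pairs correlated above 0.1.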

Additional observations from a re-analysis of the deposited data

Results flagged for a closer look

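Among the members and the named genes of the protease, inhibitor, lysosome, factor and granule lists, Nr5a2, a nuclear receptor of acinar cells, was the only one whose response to caerulein differed between the genotypes by the test of the interaction (1.42, limma adjusted p = 0.00749). Its signals were 777, 591 and 1043 in Mist1KO after caerulein and 707, 762 and 856 in Mist1KO after saline, against 295, 265 and 225 in wild type after caerulein and 681, 799 and 685 in wild type after saline. The 3 wild type caerulein arrays lay below all 9 others. Krt19, the duct keratin, also differed in its response to caerulein between the genotypes (interaction 1.62, limma adjusted p = 0.0113), with means of 853 in Mist1KO after caerulein and 56.3 in Mist1KO after saline, against 335 in wild type after caerulein and 77.8 in wild type after saline. Jchain, the antibody joining chain, differed likewise (interaction 3.94, limma adjusted p = 0.00570), with means of 735 in Mist1KO after caerulein and 272 in Mist1KO after saline, against 84.6 in wild type after caerulein and 678 in wild type after saline.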

How the results depend on the processing

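The lower Ctrc in Mist1KO in both comparisons of genotype and the lower Prss3 in Mist1KO after saline kept their direction and stayed past the threshold under all alternatives run on them. The next brightest probe set was not among these, because Ctrc and Prss3 have 1 probe set each. The counts of members called were less stable. Leaving out 1 array at a time gave 7 to 8 for Mist1KO against wild type after caerulein, 2 to 8 after saline, 1 to 7 for caerulein in Mist1KO, 1 to 2 in wild type and 0 to 0 for the interaction. Fitting only the 2 groups gave 8 after saline. Quantile normalization gave 2 for Mist1KO against wild type after caerulein and 2, of which 1 was higher, for caerulein in Mist1KO. It leaves the 6 genes near the top ranks little room to differ. No filter on dim probe sets and median-centred arrays each gave 1 for caerulein in Mist1KO. Spike scaling gave 3 for Mist1KO against wild type after caerulein (2 higher), 7 for caerulein in Mist1KO (7 higher), 0 in wild type and 1 for the interaction. With the replicate number as a block (replicate block) the counts were 8 after caerulein, 2 after saline, 7 in Mist1KO, 1 in wild type and 0 for the interaction; the numbers do not pair the samples, with same-number correlations from -0.10 to 0.05. With spike scaling, some values changed sign. The lists of turned values below cover the members and only part of the named genes. For the interaction they cover only the members and Nr5a2, and signs of other genes are not listed. For Mist1KO minus wild type after caerulein, the turned values were 0.26 for Prss3, 0.36 for Prss2, 0.31 for Ctrl, 0.33 for Ctrb1, 0.34 for Cela1, 0.29 for Cela2a, 0.37 for Cela3b, 0.19 for Klk1b5, 0.52 for Spink1, 0.54 for Serpini2, 0.67 for Ctsl, 0.96 for Ptf1a and 0.93 for Rbpjl. For Mist1KO minus wild type after saline, the turned values were 0.12 for Spink1, 0.11 for Serpini2 and 0.18 for Ctsl. For caerulein minus saline in Mist1KO, the turned values were 0.46 for Prss2, 0.38 for Ctrc, 0.46 for Ctrl, 0.42 for Ctrb1, 0.40 for Cela1, 0.39 for Cela2a, 0.45 for Cela3b, 0.64 for Spink1, 0.20 for Serpini2, 0.76 for Ptf1a, 0.074 for Bhlha15 and 0.50 for Rab3d. For caerulein minus saline in wild type, the turned values were 0.026 for Prss2, 0.026 for Ctrl, 0.035 for Ctrb1, 0.0059 for Cela1, 0.053 for Cela2a, 0.036 for Cela3b and 0.24 for Spink1. For the interaction, the turned values were 0.43 for Prss2, 0.43 for Ctrl, 0.38 for Ctrb1, 0.39 for Cela1, 0.34 for Cela2a and 0.41 for Cela3b. With quantile normalization, for Mist1KO minus wild type after caerulein, the turned values were 0.011 for Cela3b. For Mist1KO minus wild type after saline, the turned values were 0.0079 for Cela3b and -0.061 for Ctsb. For caerulein minus saline in Mist1KO, the turned values were 0.0068 for Ctrl and -0.11 for Nr5a2. For caerulein minus saline in wild type, the turned values were 0.023 for Cela2a. For the interaction, the turned values were -0.13 for Ctrc, 0.028 for Ctrl and 0.0032 for Cela3b. With median-centred arrays, Spink1 turned to 0.091 for caerulein in wild type. Leaving out 1 array gave -0.074 to 0.17 for the Ctrc interaction, -0.18 to 0.22 for Nr5a2 with caerulein in Mist1KO and -0.18 to 0.095 for Spink1 with caerulein in wild type. Spike scaling moves every value of a comparison together, as the shift of the median shows; the cause of the other changes was not tested.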
